A study of Homo sapiens with 14 samples.

Results

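The genes of cholesterol synthesis examined here are HMGCS1, IDI1, FDFT1, SQLE, SREBF1, SREBF2, SCAP and INSIG1. They were chosen by name and make up 8 of the 58434 gene symbols counted in 14 RNA sequencing libraries. HMGCS1, IDI1, FDFT1 and SQLE encode enzymes of the pathway, and SREBF1, SREBF2, SCAP and INSIG1 encode its control machinery. None of the 8 encodes a receptor that takes up cholesterol, and genes of uptake and trafficking are described as a separate list.

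The study compared MDA-MB-231 cells, an established human breast cancer line without estrogen receptor, that carried a doxycycline-inducible lentiviral shRNA. The shRNA was either the non-silencing (NS) construct, here shNSi, or sh Dap5, here shDAP5, directed against EIF4G2, the gene of the translation initiation factor DAP5. Both lines had been selected as stable lines, 1 hairpin was used for each, and all cells of both lines received doxycycline at 1 µg/ml over 6 days. Each shRNA was represented by 2 cultures, each sampled as total mRNA and, from a sucrose gradient, as light polysomes (poorly translated mRNA) and heavy polysomes (well-translated mRNA). A moderate pool was taken from shNSi only. The shDAP5 light libraries carried the code of the shNSi moderate pool, and total polysome stood in the titles of the shDAP5 total libraries. Both were taken by their titled fraction, and whether the pools of the shRNA lines cover the same part of the gradient cannot be told apart from an effect of the shRNA.

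The libraries held 25899838 to 30795910 counts. EIF4G2 was at 1442 and 1396 CPM (the count scaled to the normalized size of the library) in shNSi total mRNA and at 541 and 749 CPM in shDAP5 total mRNA, a log2 change of -1.11 (SE 0.18, adjusted p = 0.0172). VIM, CD44, KRT8, KRT18 and AXL, genes of this cell type, were above 100 CPM in every library. PGR had no count, ESR1, PTPRC, CD68, ALB and CDH1 stayed under 1 CPM, and EPCAM lay between 2.85 and 6.27 CPM. The p-values measure the spread between 2 cultures per shRNA, and an exact two-sided permutation test of 2 against 2 values cannot go below p = 0.333. Groups that do not overlap reach this limit and no lower, and the share of all genes without overlap was not counted. Where a culture was left out, its shRNA kept 1 culture, which adds no spread of its own to the p-value.

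Cholesterol is built from acetyl-CoA through mevalonate, isoprenoid units, squalene and lanosterol. HMGCS1 makes HMG-CoA near the start of the route, IDI1 interconverts the isoprenoid building blocks, FDFT1 joins farnesyl units into squalene, and SQLE oxidises squalene at a step that can limit the flux. SREBF1 and SREBF2 encode membrane-bound transcription factors, the SREBPs, which SCAP escorts from the endoplasmic reticulum to the Golgi for cleavage when sterols are low. INSIG1 retains SCAP in the endoplasmic reticulum when sterols are high and is itself a target of the SREBPs, as are the enzymes. SREBF1 is in addition a known target of the sterol-sensing liver X receptors and is linked more to fatty acid synthesis, whereas SREBF2 is linked more to cholesterol.

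The stretch before the transcription start in RefSeq (GRCh38.p14) was read for HMGCS1, INSIG1, SREBF1, SREBF2, SCAP and IDI1, over 250 bases on the coding strand. The letters TCACNCCAC, a form of the sterol regulatory element (SRE) bound by SREBPs, occur on either strand in 0.883% of the 35116 windows of that length in the table. The palindromic letters TCACGTGA, an E-box that SREBPs and other factors bind, occur in 0.854%, and CCAAT, the box bound by NF-Y, in 32% of windows. The windows of SREBF2, INSIG1 and HMGCS1 are shown because they hold the SRE, the E-box and a pair of CCAAT boxes, with these letters in capitals (ATTGG is CCAAT on the other strand).
SREBF2, chr22:41832855-41833104, plus strand: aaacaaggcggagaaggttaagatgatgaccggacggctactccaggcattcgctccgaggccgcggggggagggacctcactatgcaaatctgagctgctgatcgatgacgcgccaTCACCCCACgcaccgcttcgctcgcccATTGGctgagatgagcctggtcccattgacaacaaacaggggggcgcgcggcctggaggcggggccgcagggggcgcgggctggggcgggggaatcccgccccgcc
INSIG1, chr7:155297628-155297877, plus strand: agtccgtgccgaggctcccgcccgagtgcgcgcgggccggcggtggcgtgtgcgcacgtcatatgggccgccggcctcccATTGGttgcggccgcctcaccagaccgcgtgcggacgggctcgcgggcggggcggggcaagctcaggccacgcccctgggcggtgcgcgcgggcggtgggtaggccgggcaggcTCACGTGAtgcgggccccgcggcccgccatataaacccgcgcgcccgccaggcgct
HMGCS1, chr5:43313413-43313662, minus strand: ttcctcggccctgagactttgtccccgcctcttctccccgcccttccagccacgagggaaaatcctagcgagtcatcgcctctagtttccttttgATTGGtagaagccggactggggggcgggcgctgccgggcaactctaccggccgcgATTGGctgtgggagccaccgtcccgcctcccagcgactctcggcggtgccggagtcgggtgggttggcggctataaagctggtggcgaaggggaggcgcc
The SRE of SREBF2 began 133 bases before the start site and its CCAAT box 106 bases before it. The E-box of INSIG1 lay 56 bases and its CCAAT box 170 bases before the start, and the CCAAT boxes of HMGCS1 lay at 155 and 100 bases. The other of the 2 windows of HMGCS1 held none of these letters, and IDI1 had CCAAT boxes in 2 of its 3 windows. The matches in the windows shown did not overlap each other. None of these letters was found in the windows of SREBF1 and SCAP. The windows of SQLE and FDFT1 were not analysed here.

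SREBF1 and SREBF2 each carry a microRNA in an intron, and the pair is shown because the microRNAs share the seed (bases 2 to 8, in capitals) by which they pair with target mRNAs.
hsa-miR-33a-5p, in SREBF2, chr22:41900949-41900969, plus strand: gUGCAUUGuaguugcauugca
hsa-miR-33b-5p, in SREBF1, chr17:17813897-17813916, minus strand: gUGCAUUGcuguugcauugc
Libraries of this kind are not made to capture mature microRNAs. MIR33A had no count in any library, and MIR33B had 1 count in 1 library.

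In GENCODE v29 (GRCh38), HMGCS1 lies on the minus strand of chromosome 5 from 43289395 to 43313512, IDI1 on the minus strand of chromosome 10 from 1039152 to 1049170, and INSIG1 on the plus strand of chromosome 7 from 155297776 to 155310235. SREBF1 lies on the minus strand of chromosome 17 from 17810399 to 17837002, SREBF2 on the plus strand of chromosome 22 from 41833079 to 41907308, and SCAP on the minus strand of chromosome 3 from 47413694 to 47477126. FDFT1 and SQLE are on chromosome 8. The coding lengths ran from 681 bases in IDI1 to 3837 bases in SCAP. At most 0.898% of the 50-base stretches of a member's transcripts (IDI1) occurred in another gene on the same strand. Exons of other genes on the opposite strand overlapped HMGCS1, IDI1, SREBF1, SREBF2 and FDFT1, and whether reads from the overlaps were told apart depends on the strand rule of the counting. The name of the deposited table holds the letters rev, which may stand for counting on the reverse strand, but neither the labels nor the methods state the rule. In IDI1 13.4% and in HMGCS1 12.9% of the 50-base stretches occurred antisense in other genes. IDI2-AS1, the antisense neighbour of IDI1, had 1 to 17 counts, and RAI1, which overlaps SREBF1, had 24.0 to 62.0 CPM.

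All 8 genes passed the filter on low counts in every comparison. The lowest count of any member was 231, for SQLE. Per kilobase of exon, the median level over the 4 total mRNA libraries was 41.3 CPM per kb for FDFT1, 38.7 for IDI1, 36.7 for INSIG1, 20.9 for SREBF2, 19.2 for HMGCS1, 10.4 for SCAP, 9.90 for SREBF1 and 3.94 for SQLE, the lowest. Among neighbours in this order, INSIG1 and SREBF2 did not overlap over the 4 libraries, and every other pair of neighbours did. The plot of levels by library gives all 14 values of each gene.

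**Figure D1:**
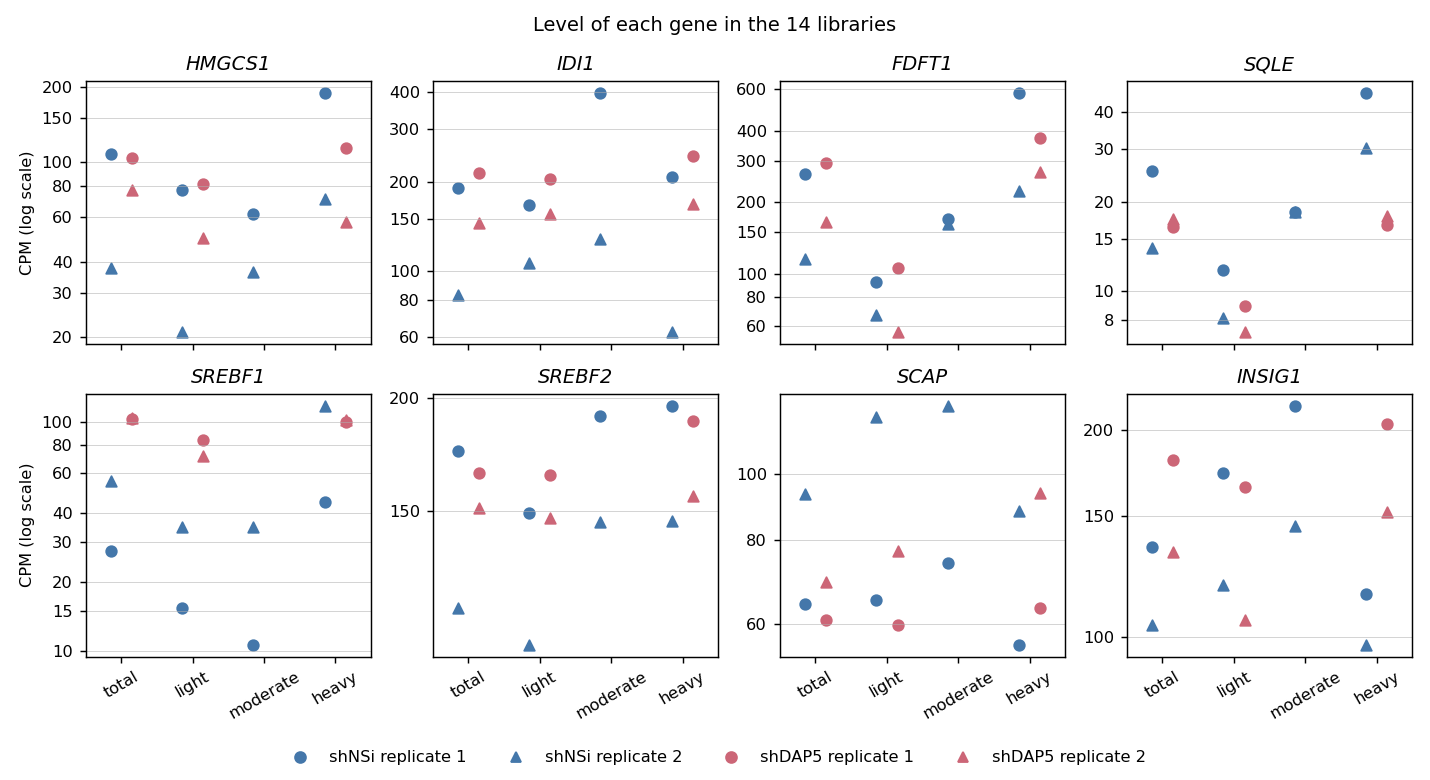
Level of the 8 genes in CPM (log axis, a separate range for each gene) in total mRNA and in light, moderate and heavy polysomes. Each point is 1 library, circles are replicate 1 and triangles replicate 2. The shNSi cultures (blue) stood apart for HMGCS1, IDI1 and SREBF1, and SREBF1 was at 104 CPM in both shDAP5 total mRNA libraries.

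In total mRNA the enzymes differed more between the shNSi cultures than between the means of the shRNA lines. HMGCS1 was at 108 and 37.7 CPM in total mRNA of shNSi replicates 1 and 2 and at 104 and 77.0 CPM in shDAP5. IDI1 was at 191 and 83.1 CPM in shNSi and at 214 and 146 CPM in shDAP5. FDFT1 was at 264 and 115 CPM in shNSi and at 293 and 165 CPM in shDAP5. For each of these enzymes shNSi replicate 2 was the lowest of the 4 libraries. SQLE was at 25.3 and 14 CPM in shNSi, on either side of the shDAP5 values of 16.4 and 17.4 CPM.

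Between the shNSi total mRNA libraries, replicate 1 was 2.85-fold above replicate 2 for HMGCS1, 2.30-fold for FDFT1 and 2.29-fold for IDI1, while for SREBF1 it stood at 0.499 of replicate 2. These 4 of 8 genes were more than 2-fold apart, against 1.47% of the 9306 genes with a mean of at least 10 CPM in total mRNA. Shares and ranges of all genes between cultures refer to that set. Between the shDAP5 total mRNA libraries none of the 8 was more than 2-fold apart, against 0.408% of genes, and FDFT1 was the furthest apart at 1.78-fold. The median size of the difference between the shNSi cultures, on the log2 scale, was 0.93 for the 8 genes and 0.21 for all genes. The plot of differences between cultures sets each gene against the range that held 95% of genes. Among the other 16 enzymes of the pathway 14 reached that level. Of these 14, 12 were also higher in shNSi replicate 1, with a median log2 difference of 0.42, against 46.1% of all genes. Of the listed genes at that level, 7 of 9 of fatty acid synthesis were higher there (median 0.18). For uptake, trafficking and efflux 3 of 10 were (median -0.18), and for the SREBP machinery 0 of 5 (median -0.22).

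**Figure D2:**
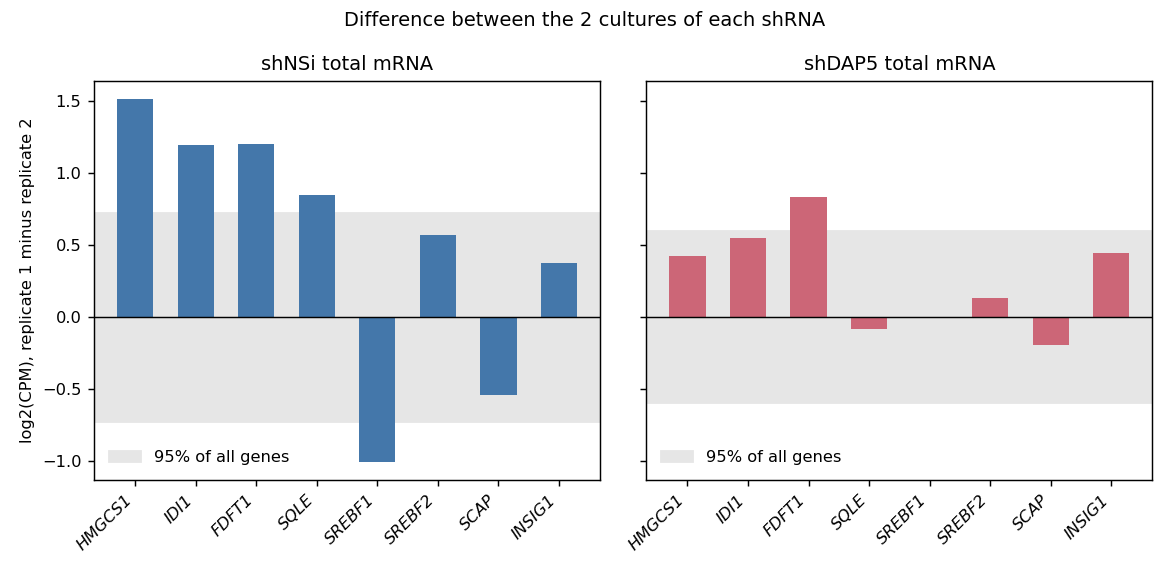
Difference in log2 CPM between replicate 1 and replicate 2 of total mRNA, for shNSi on the left and shDAP5 on the right. The grey band holds 95% of the 9306 genes with a mean of at least 10 CPM in total mRNA, by size of the difference. HMGCS1, IDI1, FDFT1, SQLE and SREBF1 lay outside it in shNSi, and FDFT1 in shDAP5.

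On polysomes the shNSi cultures differed for more genes in general. In shNSi heavy polysomes 4 of the 8 genes were more than 2-fold apart, against 5.47% of genes, with replicate 1 3.31-fold above replicate 2 for IDI1, 2.66-fold for HMGCS1 and 2.59-fold for FDFT1, and at 0.38 of it for SREBF1. In light polysomes 2 of 8 were, against 10.8% of genes, HMGCS1 (3.68-fold higher in replicate 1) and SREBF1 (0.443 of replicate 2), while FDFT1 and IDI1 lay at the 52.5th and 69.0th percentile of all differences by size. In the moderate pool 2 of 8 were, IDI1 and SREBF1, against 17.4% of genes. SREBF1 thus ran opposite to HMGCS1, IDI1 and FDFT1 in each shNSi fraction.

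For total mRNA, the question was whether DAP5 silencing altered mRNA abundance. SREBF1 was higher in both shDAP5 cultures, at 104 and 104 CPM, than in the shNSi cultures, at 27.5 and 55.2 CPM. The groups did not overlap, and the shDAP5 values were nearly equal to each other. The change was 1.37 on the log2 scale (SE 0.29), a 2.58-fold difference, with an unadjusted p of 0.000865 and an adjusted p of 0.0847 from the edgeR quasi-likelihood test across all genes. It lay at the 98.9th percentile of all changes without passing the threshold of 0.05.

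None of the 8 genes was called higher in total mRNA, where 0.0867% of 14992 genes were, and none was called lower, where 0.267% were. SREBF1 was not called without shDAP5 replicate 1 (1.36, adjusted p = 0.896), where no gene was, without shDAP5 replicate 2 (1.35, adjusted p = 0.081) or with limma (1.46, adjusted p = 0.103). It did pass with DESeq2 (adjusted p = 0.000776) and when either shNSi culture was left out, at 0.92 without replicate 1 (adjusted p = 0.0289) and 1.94 without replicate 2 (adjusted p = 0.000329). Leaving out shNSi replicate 1 also brought the changes of HMGCS1 to 1.26 (adjusted p = 0.00895) and of IDI1 to 1.12 (adjusted p = 0.0205), where 2.47% of all genes were called. Without shNSi replicate 2, where 0.828% were, HMGCS1 stood at -0.23 and IDI1 at -0.06.

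The other genes differed less in total mRNA. INSIG1 was at 135 and 104 CPM in shNSi and at 181 and 133 CPM in shDAP5 (log2 change 0.42, SE 0.20, adjusted p = 0.436). SREBF2 was at 174 and 117 CPM in shNSi and at 165 and 151 CPM in shDAP5 (0.15, SE 0.20, adjusted p = 0.861). SCAP, at 64.3 and 93.5 CPM in shNSi and 60.8 and 69.4 CPM in shDAP5, gave -0.25 (SE 0.20, adjusted p = 0.711). In each of these 3 genes the groups overlapped. The log2 changes of the enzymes were 0.34 for HMGCS1 (SE 0.59), 0.42 for IDI1 (SE 0.45), 0.30 for FDFT1 (SE 0.55) and -0.18 for SQLE (SE 0.27), with adjusted p-values of at least 0.822.

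Other genes of sterol and lipid metabolism were counted over the same libraries, where, as above, 0.0867% of all genes were called higher and 0.267% lower. Of the 16 other enzymes of cholesterol synthesis none passed the test in total mRNA, with a median log2 change of -0.05 against 0.01 for all genes. Of the 7 further genes of the SREBP machinery none passed either (median -0.56). Of 12 tested genes of uptake, trafficking and efflux 1 rose, ABCA1, a cholesterol efflux transporter, named after its values were seen. ABCA1 was at 0.79 and 1.72 CPM in shNSi and at 5.45 and 11.3 CPM in shDAP5 (log2 change 2.77, SE 0.45, adjusted p = 0.0278). Of 9 genes of fatty acid synthesis 1 rose, SCD, which puts the first double bond into saturated fatty acids. SCD was at 121 and 80.2 CPM in shNSi and at 297 and 219 CPM in shDAP5 (1.39, SE 0.23, adjusted p = 0.0271). For ABCA1 and SCD, as for SREBF1, both shDAP5 cultures lay above both shNSi cultures.

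Light polysome mRNA showed SREBF1 highest among the changes of the 8 genes as well. SREBF1 was at 15.5 and 35.0 CPM in shNSi light polysomes and at 84.1 and 71.3 CPM in shDAP5. The groups did not overlap, and the log2 change was 1.65 (SE 0.38, unadjusted p = 0.00173, adjusted p = 0.430). No gene passed the adjusted threshold in edgeR, 98 genes did in DESeq2, and SREBF1 was among the latter (adjusted p = 0.0133). Against the shNSi moderate pool, whose code the shDAP5 light libraries carry, 25.5% of genes were called, and of the 8 SREBF1 was higher (1.86, adjusted p = 0.0325) and SQLE lower (-1.09, adjusted p = 0.034). At an unadjusted p under 0.05, SREBF1 was the only one of the 8, where 8.56% of 15529 genes were. The other 7 genes lay between -0.42 for SCAP and 0.44 for HMGCS1, with adjusted p-values of at least 0.725.

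Without shNSi replicate 1, which leaves 1 shNSi light library, HMGCS1 stood at 1.67, SREBF1 at 1.17, IDI1 at 0.77 and SCAP at -0.81. In that comparison 28.9% of all genes were called, against none with both cultures. Without shNSi replicate 2, SREBF1 stood at 2.34. Each of these fits held 1 shNSi light library, so the spread between the shNSi cultures did not enter their tests. None of the 4 further lists had a gene past the adjusted threshold in light polysomes, and their medians ran from -0.49 for the SREBP machinery to 0.19 for fatty acid synthesis, against -0.01 for all genes.

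In heavy polysomes, the well-translated fraction, SQLE fell. It was at 46.4 and 30.3 CPM in shNSi and at 16.7 and 17.9 CPM in shDAP5. Each shDAP5 value was below both shNSi values, and the log2 change was -1.08 (SE 0.34, 0.472-fold, adjusted p = 0.00864). SQLE was thus 1 of 8 genes called lower, where 16.7% of 14270 genes were, and none was called higher, where 14.2% were. The change was -0.81 without shNSi replicate 1, -1.09 without shDAP5 replicate 1 and -1.14 without shDAP5 replicate 2. These fits leave 1 culture in a group, and SQLE was not called in them. Against the shNSi moderate pool, in which SQLE was at 18.5 and 18.5 CPM, the change was -0.06 (adjusted p = 1.00), where 0.344% of all genes were called.

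INSIG1 was at 115 and 97.3 CPM in shNSi heavy polysomes and at 204 and 152 CPM in shDAP5. The groups did not overlap, and the log2 change of 0.81 (SE 0.34) missed the threshold with an adjusted p of 0.0519. HMGCS1, at 189 and 71.0 CPM in shNSi and 113 and 57.4 CPM in shDAP5, overlapped (-0.55, SE 0.37, adjusted p = 0.258). IDI1 (0.66), SREBF1 (0.40), SCAP (0.20), SREBF2 (0.07) and FDFT1 (-0.27) had adjusted p-values of at least 0.189. SREBF1 was at 44.9 and 118 CPM in shNSi heavy polysomes and at 101 and 102 CPM in shDAP5, between the shNSi cultures. Without shNSi replicate 2 its change was 1.19 (adjusted p = 0.0345) and without replicate 1 it was -0.23. Without shNSi replicate 2 HMGCS1 was called at -1.13 (adjusted p = 0.0285), and without replicate 1 IDI1 was called at 1.71 (adjusted p = 0.000787), where 14.1% and 23.7% of all genes were called.

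The further lists were counted in heavy polysomes too, where 14.2% of all genes were called higher and 16.7% lower. These calls depended on the control pool, since 0.344% of all genes were called against the shNSi moderate pool and 2.77% with the heavy and moderate pools summed. Of the 16 other enzymes 1 rose and 3 fell. Among them SC5D and DHCR7, late desaturase and reductase steps, fell by 1.25 and 1.03 on the log2 scale (adjusted p = 0.00237 and 0.0117), and PMVK, a kinase of the mevalonate stretch, rose by 0.95 (adjusted p = 0.0203). Of the 7 genes of the SREBP machinery none rose and 3 fell, MBTPS2, ERLIN2 and ERLIN1, by 1.82, 1.08 and 0.84. MBTPS2, named after its values were seen, encodes the protease that makes the second cut in the SREBPs. Of 12 genes of uptake, trafficking and efflux 5 rose and 6 fell, with NPC1, SOAT1 and LIPA, which act in lysosomal export, esterification and ester hydrolysis of cholesterol, down by 2.01, 1.84 and 1.62. Of 9 genes of fatty acid synthesis SCD rose (0.98) and 3 fell, including ACLY (-1.81) and FASN (-0.90). The medians were 0.10, -0.65, -0.17 and -0.42 in this order of lists, against 0.09 for all genes.

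**Figure D3:**
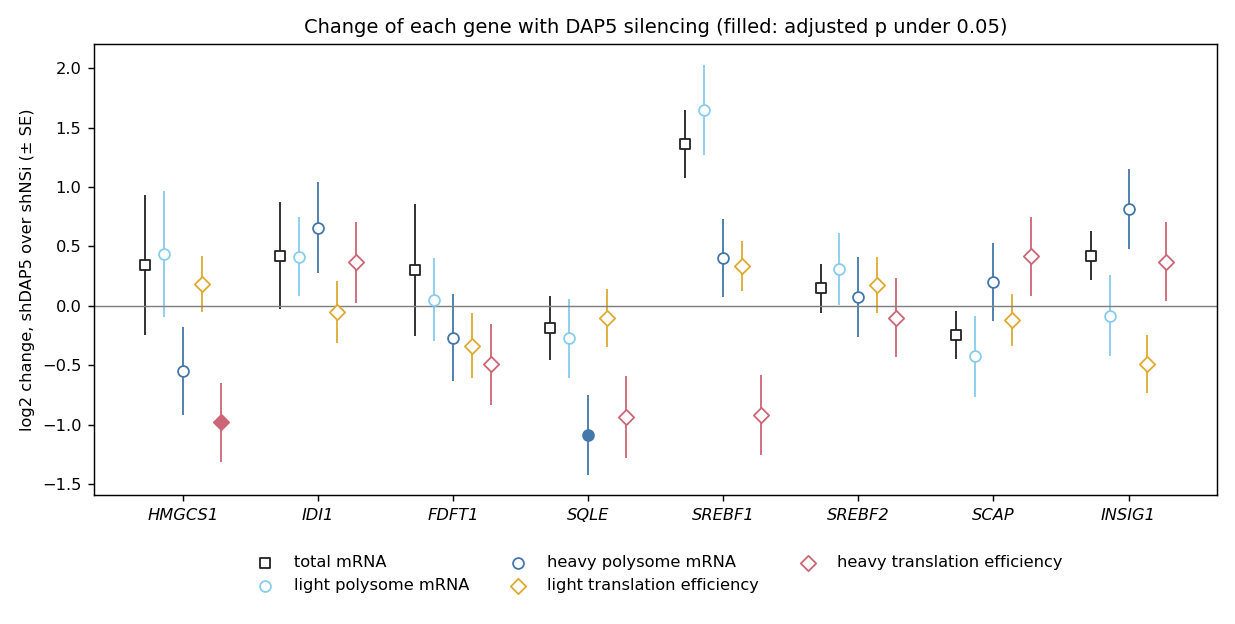
Log2 change of each gene between shDAP5 and shNSi with its standard error, in total mRNA, light and heavy polysome mRNA and in the translation efficiencies of both polysome fractions. Filled symbols passed an adjusted p of 0.05. These were HMGCS1 in heavy translation efficiency (-0.98) and SQLE in heavy polysome mRNA (-1.08), while SREBF1 stood highest in total mRNA (1.37) and light polysomes (1.65).

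Translation efficiency, the polysome level of an mRNA relative to its level in total mRNA, was compared between the shRNAs to separate a shift on polysomes from a change in abundance. In heavy polysomes HMGCS1 fell. Its heavy polysome level over that in total mRNA was, as a log2 ratio, 0.81 and 0.91 in the shNSi cultures and 0.13 and -0.42 in the shDAP5 cultures. The groups did not overlap, and the difference was -0.98 (SE 0.33, 0.507-fold, adjusted p = 0.0442). HMGCS1 was the 1 gene of 8 called lower, where 8.23% of 15374 genes were, and none was called higher, where 4.85% were.

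SQLE and SREBF1 gave differences of like size that missed the threshold. SQLE had log2 ratios of 0.87 and 1.11 in shNSi and of 0.03 and 0.04 in shDAP5 (-0.93, SE 0.35, adjusted p = 0.0623). SREBF1 had 0.70 and 1.10 in shNSi and -0.05 and -0.03 in shDAP5 (-0.92, SE 0.33, adjusted p = 0.0572). In both genes the ratio in the shDAP5 cultures was near 0, so that heavy polysomes and total mRNA held close to the same level, and the shNSi cultures lay above. DESeq2 called HMGCS1, SQLE and SREBF1 lower (adjusted p = 0.0322, 0.0487 and 0.0401), where 10.9% of all genes were called.

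The call of HMGCS1 was lost under more alternatives than it held. It was lost with limma on quantile-normalized values, the study's method (-0.78, adjusted p = 0.122), without TMM scaling (-0.77, adjusted p = 0.151), with all 14 libraries in 1 fit (-1.12, adjusted p = 0.0652) and with the shNSi heavy and moderate pools summed (-0.33, adjusted p = 1). Of all genes 5.96% were called with limma and 6.5% in the joint fit, against 13.1% in the main fit. Without TMM scaling and with the pools summed no gene was called, so these 2 settings do not single out HMGCS1. Fits without a culture leave 1 culture in a group. HMGCS1 then stood at -0.71 without shDAP5 replicate 2, at -1.04 without shNSi replicate 1 and at -0.95 without shNSi replicate 2, and it was not called. HMGCS1 stood at -1.26 without shDAP5 replicate 1, with SQLE at -0.92 and SREBF1 at -0.91. With the shNSi moderate pool as the control its direction turned, to 0.28 (SE 0.44), and SQLE stood at 0.06 and SREBF1 at 0.96 with no gene called among all those tested.

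The other members spanned both signs in heavy translation efficiency. FDFT1, with log2 ratios of 1.13 and 0.96 in shNSi and 0.35 and 0.70 in shDAP5, gave -0.49 (SE 0.34, adjusted p = 0.345). SCAP, at -0.20 and -0.08 in shNSi and 0.06 and 0.43 in shDAP5, gave 0.42 (SE 0.33, adjusted p = 0.419). INSIG1, at -0.23 and -0.10 in shNSi and 0.17 and 0.19 in shDAP5, gave 0.37 (SE 0.33, adjusted p = 0.472). None of these passed, although the groups did not overlap. IDI1 gave 0.37 (SE 0.34) and SREBF2 -0.10 (SE 0.33). The median of the 8 differences was -0.30, against 0.09 for all genes, with 3 higher and 5 lower.

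**Figure D4:**
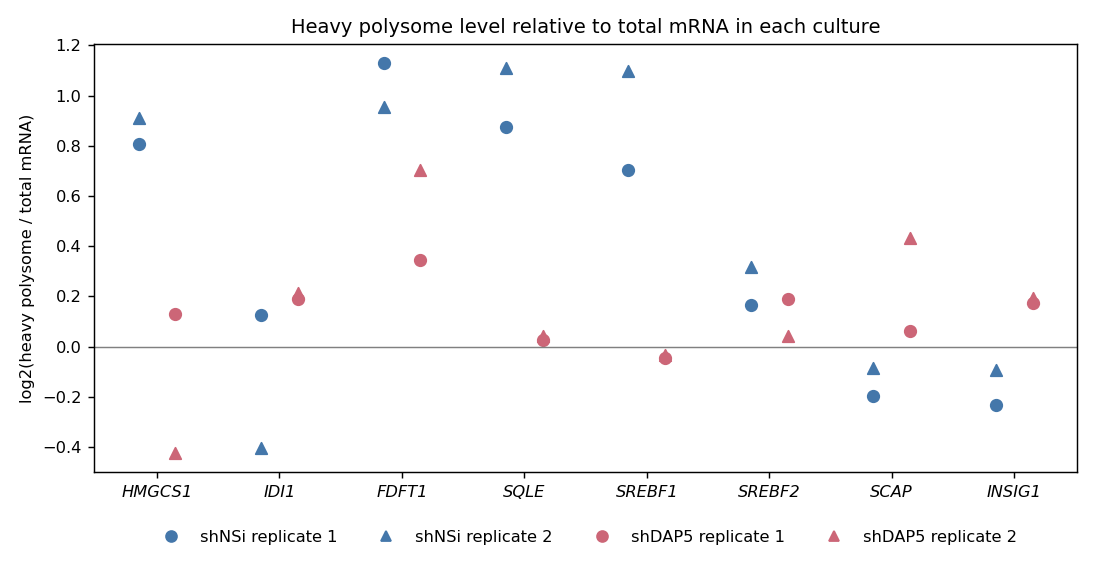
Log2 ratio of the heavy polysome level to the total mRNA level of the same culture for each gene, with shNSi in blue and shDAP5 in red, and circles and triangles for replicates 1 and 2. SQLE and SREBF1 lay near 0 in both shDAP5 cultures and between 0.70 and 1.11 in the shNSi cultures.

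Among the further lists, none of the 16 other enzymes passed in heavy translation efficiency (median -0.02), where 4.85% of all genes were called higher and 8.23% lower. Of the 7 genes of the SREBP machinery 1 fell, MBTPS2 (-1.21, adjusted p = 0.023, named after its values were seen). Of 12 genes of uptake, trafficking and efflux 2 rose and 3 fell, among them NPC1 (-1.52), LIPA (-1.19) and NPC2 (1.10), the last a carrier of cholesterol within the lysosome. Of 9 genes of fatty acid synthesis none rose and 3 fell, ACLY (-1.65), FASN (-1.18) and ACSS2 (-1.02). ACLY and ACSS2 make cytosolic acetyl-CoA, and FASN builds palmitate from it.

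In light translation efficiency no gene passed the adjusted threshold in edgeR or DESeq2. Against the shNSi moderate pool 27.5% of genes were called, and of the 8 SQLE (-0.94, adjusted p = 0.0406) and FDFT1 (-1.34, adjusted p = 0.0169) were lower. At an unadjusted p under 0.05 none of the 8 genes passed, where 5.22% of 15967 genes did. The differences ran from -0.49 for INSIG1 (SE 0.24, adjusted p = 0.879) to 0.33 for SREBF1 (SE 0.21, adjusted p = 0.879). Without shNSi replicate 1 FDFT1 was called at -0.68 (adjusted p = 0.0133), where 12.3% of all genes were called.

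The change in heavy polysomes was also set directly against that in light polysomes. SREBF1 had a log2 ratio of heavy to light polysomes of 1.53 and 1.75 in shNSi and of 0.26 and 0.51 in shDAP5, a difference of -1.31 (SE 0.40, adjusted p = 0.0501). HMGCS1 had 1.29 and 1.76 in shNSi and 0.47 and 0.21 in shDAP5 (-1.22, SE 0.41, adjusted p = 0.0672). SQLE had 1.97 and 1.89 in shNSi and 0.90 and 1.29 in shDAP5 (-0.88, SE 0.40, adjusted p = 0.169). In each the shDAP5 cultures lay below the shNSi cultures. None of the 8 was called lower, where 5.21% of 15878 genes were, or higher, where 1.54% were.

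DESeq2 called SREBF1 (adjusted p = 0.0189) and HMGCS1 (adjusted p = 0.0336) lower, where 10.6% of all genes were called, as did the comparison without shNSi replicate 1 (-1.40 and -1.45, adjusted p = 0.0162 and 0.0142), in which 17.8% of all genes were called. FDFT1, with ratios of 2.65 and 1.73 in shNSi and of 1.82 and 2.23 in shDAP5, overlapped (-0.21, SE 0.47). Of the 16 other enzymes 1 was called, PMVK, which rose by 1.36. Of the 7 genes of the SREBP machinery 1 was, MBTPS2 (named after its values were seen), which fell by 1.42. Of 12 genes of uptake, trafficking and efflux NPC1 and SOAT1 fell by 1.91 and 1.53, and of 9 of fatty acid synthesis ACLY fell by 1.87. No other gene of these lists was called. With the shNSi heavy and moderate pools summed, none of 15884 genes was called, against 6.75% here.

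Within the shNSi cultures FDFT1, SQLE, SREBF1 and HMGCS1 were higher in heavy than in light polysomes, and no member was called lower, although IDI1 was without shNSi replicate 1 (-0.79, adjusted p = 0.0255), where 49.2% of all genes were called. FDFT1 was at 92.0 and 67.1 CPM in light and at 578 and 223 CPM in heavy polysomes (log2 change 2.20, SE 0.34, adjusted p = 7.27e-05). SQLE rose from 11.8 and 8.12 CPM to 46.4 and 30.3 CPM (1.93, SE 0.25, adjusted p = 2.02e-05). SREBF1 rose by 1.63 (SE 0.25, adjusted p = 5.55e-05) and HMGCS1 by 1.49 (SE 0.28, adjusted p = 0.000316). These 4 of 8 were called higher in heavy polysomes, where 33.8% of 15514 genes were, and none lower, where 31.9% were. The 4 calls held in each alternative run, from 1.01 for HMGCS1 without TMM scaling upward. SREBF2 (0.41), IDI1 (-0.26), SCAP (-0.35) and INSIG1 (-0.45) were not called, with adjusted p-values of at least 0.145. INSIG1 was at 173 and 119 CPM in shNSi light and at 115 and 97.3 CPM in heavy polysomes.

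Against the moderate pool, SREBF1 (1.98), HMGCS1 (1.34), FDFT1 (1.18) and SQLE (1.09) were again higher in shNSi heavy polysomes, 4 of 8 where 23.1% of genes were. IDI1 was lower, 1 of 8 where 12.9% of genes were. IDI1 was at 398 and 128 CPM in the moderate pool, its highest level in each shNSi culture, and at 208 and 62.7 CPM in heavy polysomes (-0.90, SE 0.31, adjusted p = 0.0319). Without shNSi replicate 1, SQLE (0.74, adjusted p = 0.115) and FDFT1 (0.48, adjusted p = 0.265) were not called, and without shNSi replicate 2 INSIG1 was called at -0.89 (adjusted p = 0.0236).

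In the shDAP5 cultures FDFT1 and SQLE were called higher in heavy than in light polysomes, 2 of 8 where 25.9% of 15619 genes were, and none was lower, where 24.8% were. FDFT1 was at 105 and 56.9 CPM in light and at 372 and 268 CPM in heavy polysomes (1.93, SE 0.20, adjusted p = 0.000115). SQLE was at 8.93 and 7.30 CPM in light and at 16.7 and 17.9 CPM in heavy polysomes (1.00, SE 0.22, adjusted p = 0.00338), and it was not called without shDAP5 replicate 2 (0.87, adjusted p = 0.0918). SREBF1 (0.29) and HMGCS1 (0.25), called in shNSi, were not called here (adjusted p = 0.217 and 0.308). The difference between the shRNA lines is the comparison of heavy with light changes given above, in which neither gene passed.

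For the lists, the shares of all genes called were those above, 33.8% higher and 31.9% lower in shNSi, and 25.9% and 24.8% in shDAP5. Of the 16 other enzymes of the pathway 9 were higher and 3 lower in heavy than in light polysomes of shNSi, with LSS (2.28), DHCR7 (2.15) and ACAT2 (1.77) furthest among those with a mean of at least 10 CPM in total mRNA, and 10 were higher and 2 lower in shDAP5. LSS closes squalene epoxide to lanosterol, the step after SQLE. Of 9 genes of fatty acid synthesis 7 were higher in shNSi and 5 in shDAP5, and none was lower in either. The medians of the other enzymes were 0.66 in shNSi, against -0.06 for all genes, and 0.93 in shDAP5, against -0.02.

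The position on the gradient followed coding length over all genes, and the 8 genes departed from it in part. Across 12493 genes, which are not independent replicates, Spearman's rho between coding length and the heavy over light change in shNSi was 0.65. FDFT1, with a coding length of 1251 bases, lay 1.86 above the loess curve at its length, SQLE 1.21 above and HMGCS1 0.85 above. SCAP, the longest at 3837 bases, lay 1.62 below it and SREBF2 0.81 below. The residual SD of all genes was 1.03. The plot of heavy over light level against coding length shows the enzymes FDFT1, SQLE and HMGCS1 above the curve and SCAP below it.

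**Figure D5:**
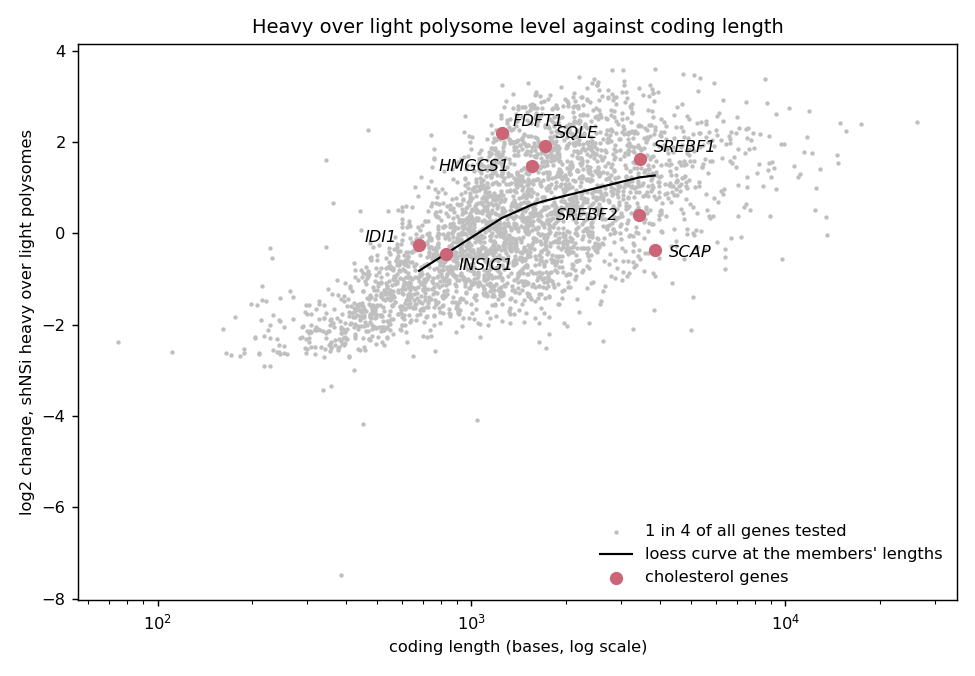
Log2 change between heavy and light polysomes of the shNSi cultures against coding length in bases (log axis). Grey points are 1 in 4 of the genes tested, red points the 8 genes, and the line joins the loess curve at their lengths. FDFT1 lay 1.86 above the curve and SCAP 1.62 below it.

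The heavy translation efficiency changes with silencing followed coding length in the opposite sense, with rho = -0.71 across 12465 genes. Against the loess curve at its length HMGCS1 differed by -0.80, SQLE by -0.68 and SREBF1 by -0.21, while SCAP lay 1.17 above and SREBF2 0.61 above, with a residual SD of 0.56. With offsets for coding length in the edgeR fit, HMGCS1 was not called (-0.80, adjusted p = 0.0654), SREBF1 stood at -0.21 (adjusted p = 0.689), and SCAP was called higher (1.17, adjusted p = 0.0241). In that fit 3.82% of all genes were called, against 13.1% without offsets. The part of coding length in these differences was not tested further.

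For each gene the most similar pattern was taken as the highest Pearson correlation of log2 CPM over the 14 libraries among 9387 genes, as a description in which libraries share cultures and fractions. These were APBB2 for HMGCS1 (0.92) and SREBF2 (0.93), KDM1B for SQLE (0.97), ING4 for INSIG1 (0.90), ZNF251 for SREBF1 (0.94), TIMP1 for SCAP (0.95), CTH for FDFT1 (0.96) and SRSF8 for IDI1 (0.95). Among the 8 themselves SQLE was most similar to FDFT1 (0.87), HMGCS1 to SREBF2 (0.85) and INSIG1 to IDI1 (0.80). SCAP ran opposite to HMGCS1 (-0.89), and the highest value of SREBF1 with any other member was 0.22.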

How the data were processed

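The authors deposited whole-number read counts per gene symbol, without normalization. Single-read sequencing is stated. The submitters' processing notes name STAR 2.6.0a, hg19 and limma, and the strand rule is not stated, although the name of the deposited table holds the letters rev. Positions, coding lengths and exon lengths were taken by symbol from GENCODE v29 (18872 symbols with a coding length), and 27 symbols that had turned into dates were left as they stood.

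Counts were analysed in R 4.3.3 with edgeR 4.0.16: filterByExpr, TMM scaling and the quasi-likelihood test, with 1 fit for the 4 libraries of a fraction, 1 fit of polysome and total libraries with a term per culture for translation efficiency, and 1 fit per line for the gradient. Benjamini-Hochberg adjustment ran over all genes tested, with a threshold of 0.05. The study quantile normalized both kinds of library and used limma, which was run as an alternative (limma 3.58.1, pseudocount 1), beside DESeq2 1.42.0, no TMM, other filters, 1 joint fit, coding length offsets, other shNSi pools, the replicate number as a block, and each culture left out. CPM values used TMM over 14 libraries, and log2 ratios a prior count of 2. Loess curves had a span of 0.3. The edgeR scripts were tested on simulated data.

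The members and lists were chosen with earlier results of these data known. Named genes were the 8 members, EIF4G2, the most similar gene of each member, and of each list up to 3 called genes with the largest change and a mean of at least 10 CPM in total mRNA. ABCA1 and MBTPS2, under that level, were named after their values were seen. At 25899838 to 30795910 counts a library, the precision rests on 2 cultures per group.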

Additional observations from a re-analysis of the deposited data

Results flagged for a closer look

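HMGCS1 in heavy translation efficiency was singled out because the relation of heavy polysome to total mRNA differed between the shRNA lines in a test of that difference itself. Taken over total mRNA, its heavy polysome level was, as a log2 ratio, 0.81 and 0.91 in the shNSi cultures and 0.13 and -0.42 in the shDAP5 cultures, a difference of -0.98 (SE 0.33, edgeR adjusted p = 0.0442). The call was lost with limma (adjusted p = 0.122), without TMM (0.151), in the joint fit (0.0652), with coding length offsets (0.0654) and with the shNSi heavy and moderate pools summed. No gene at all was called without TMM or with the pools summed. It was also lost for HMGCS1 without shNSi replicate 1, shNSi replicate 2 or shDAP5 replicate 2, which leaves 1 culture in a group. The difference stayed negative in each of these settings, but turned to 0.28 against the shNSi moderate pool. Groups of 2 cultures were too small for a formal test of an outlying library.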

How the results depend on the processing

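Of 912 values of single genes under the alternatives, 741 kept their direction and their side of the threshold, 68 gained a call and 21 lost one. The sign differed in 82, of which 81 were not called in either setting and 1 was, HMGCS1 in heavy translation efficiency against the shNSi moderate pool (0.28). The counts that follow are how many of the 8 genes were called, and the cause of each shift was not tested. In total mRNA, 0 became 1 (SREBF1) with DESeq2, without a filter and with the replicate block (1.78%, 2.19% and 2.43% of all genes, against 0.354%). In heavy polysomes, 1 became 2 with at least 10 counts in every library and with coding length offsets, 3 with limma, 0 with the shNSi heavy and moderate pools summed and 4 with length offsets and the replicate block together, where 33%, 11.7%, 27.4%, 2.77% and 22.7% of all genes were called, against 30.9%. In light polysomes, 0 became 1 with DESeq2, without a filter, with the replicate block and with length offsets and the block (0.631%, 0.899%, 0.837% and 1.8% of all genes, against 0%), and 2 against the shNSi moderate pool (25.5%). In heavy translation efficiency, 1 became 3 with DESeq2 (10.9% of all genes, against 13.1%). It became 0 in the joint fit, with the replicate block and with limma (6.5%, 4.48% and 5.96% of all genes). It also became 0 without TMM, against the moderate pool and with the pools summed, where 0% of all genes were called. In light translation efficiency, 0 became 2 against the moderate pool (27.5%, against 0%). For the heavy over light change, 0 became 2 with DESeq2, in the joint fit and with light and moderate pools summed (10.6%, 17.1% and 15.6% of all genes, against 6.75%), and 1 without a filter, with at least 10 counts, with length offsets and with length offsets and the replicate block (5.31%, 11.1%, 0.865% and 2.03%). The replicate block changed no other of these counts. Leaving out each culture in turn gave 0 to 3 in total mRNA, 0 to 3 in heavy polysomes, 0 to 4 in light polysomes, 0 to 3 in heavy and 0 to 1 in light translation efficiency, 0 to 2 for the heavy over light change, 3 to 6 for shNSi heavy against moderate and 1 to 2 for shDAP5 heavy against light. Over all genes the same settings called 0% to 2.47% in total mRNA, 0.0134% to 23.7% in heavy and 0.0125% to 28.9% in light polysomes, 0.025% to 28.5% in heavy and 0% to 12.3% in light translation efficiency, 0.0121% to 17.8% for the heavy over light change, 49.2% and 55.4% for shNSi heavy against light, 17.5% and 36.2% for shNSi heavy against moderate and 19.8% and 19.4% for shDAP5 heavy against light. A lone library was then assumed to vary like the other groups.

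Same-numbered cultures of the lines correlated at -0.18 in total mRNA, 0.05 in heavy and 0.03 in light polysomes over 9306 genes, so the replicate block rests on a shared number only. With the pairing crossed, which was added once the data had been examined, the counts came to 1 in total mRNA, 2 in heavy and 1 in light polysomes, 3 in heavy translation efficiency and 2 for the heavy over light change, where 0.474%, 27.2%, 0.638%, 26.9% and 14.1% of all genes were called. Over all genes, calls in total mRNA went from 53 to 267 with DESeq2, 577 without a filter and 365 with the replicate block, and in heavy translation efficiency from 2012 to 688 with the replicate block, 4133 with the pairing crossed, 1055 in the joint fit and 0 without TMM. Without TMM the median change of all genes was 0.34 in heavy polysomes and 0.30 in heavy translation efficiency, against 0.09 in both with it.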
